A study of Mus musculus with 6 samples.

Results

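The cytochrome P450 genes of mouse intestinal organoids were compared between cultures kept with tyramine and control cultures. Members were taken by symbol, as Cyp followed by digits, a letter and digits, which gave 93 genes of 38 subfamilies among the 24786 gene rows counted. Of these, 45 genes in 17 subfamilies had 10 or more counts in at least 3 libraries and are reported with their values. A further 21 genes had some counts but fewer than that, and 27 had 0 counts in every library.

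Organoids are cultured structures of gut epithelium, here of wild-type (WT) genotype. They were dissociated with TrypLE over 10 min to single cells and then held for 16 h either with tyramine at 100 µM (titled WT_TA100, 3 libraries) or as controls (titled WT_DMSO, 3 libraries). Gut bacteria make tyramine, an amine, from the amino acid tyrosine. The control titles name DMSO while the series design names control medium, and the labels do not say whether both arms held DMSO. They name no age, sex or gut segment, and do not tie the replicates to separate mice or cultures. The p-values thus speak only to the spread among these 6 libraries, and that spread could be technical.

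P450 enzymes are heme proteins that insert an oxygen atom into fat-soluble substrates. Most, though not the mitochondrial ones, draw electrons from the reductase encoded by Por and, for some reactions, from cytochrome b5. In the gut P450 enzymes are found mostly in absorptive enterocytes, where many of them oxidise drugs, dietary compounds, arachidonic acid and other fatty acids. Several are induced through receptors, such as Cyp3a11 through PXR (gene Nr1i2), Cyp2b10 through CAR (gene Nr1i3) and Cyp1a1 through the aryl hydrocarbon receptor AHR.

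Most of the abundant P450 genes were lower with tyramine. Summed over all 93 genes, P450 transcripts took 1.67%, 1.58% and 1.58% of all counts in the control libraries (replicates 1, 2 and 3 in turn) but 0.444%, 0.458% and 0.359% in the tyramine libraries. In CPM, which are counts scaled to library size times a TMM factor that evens out library composition, the sum was 15641 ± 387 in controls and 4330.3 ± 519 with tyramine (mean ± SD, n = 3 per group as throughout), 3.61-fold lower. Of the 45 reported genes, 19 fell and 1, Cyp2b9, rose at a Benjamini-Hochberg adjusted p under 0.05 in edgeR's quasi-likelihood test, fitted and adjusted over 12139 genes. The other 25 did not pass, 18 with a negative and 7 with a positive log2 fold change (tyramine minus control).

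The falling genes were 42.2% of the reported genes, whereas 13.3% of all genes tested fell. The rising gene was 2.22% of them, whereas 12.5% of all genes rose and 25.8% were called in either direction. Falls of at least 2-fold were called in 17 reported genes (37.8%) and in 9.1% of all genes. Every tyramine library lay below every control library for 34 reported genes (75.6%, 15 of them not called) and for 23.6% of all genes. Every tyramine library lay above every control library for 1 reported gene and for 20.9% of all genes, and 10 reported genes overlapped between groups. The median log2 fold change was -2.24 over the reported genes, -2.18 with genes at 0 counts in a group set to their bound, and 0.0041 over all genes tested. These figures describe the genes that had enough counts: 6 of the 45 reached the minimum through control libraries alone (Cyp2b13, Cyp2d10, Cyp2d11, Cyp2r1, Cyp39a1 and Cyp3a16) and 1 through tyramine libraries alone (Cyp2b9). In these genes the minimum itself set the counts of the groups apart, so their lack of overlap follows from it and is no support. The ratios, bounds and calls given for them are likewise those of genes picked for being high in 1 group. Cyp2d10 and Cyp2d11 are also among the falling genes, and Cyp2b9 is the rising one. Without control replicate 1, 2 or 3 the 3127 genes called in all became 1995, 1977 and 2075, and the single rise became 0, whereas the falling P450 genes numbered 16 each time.

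**Figure D1:**
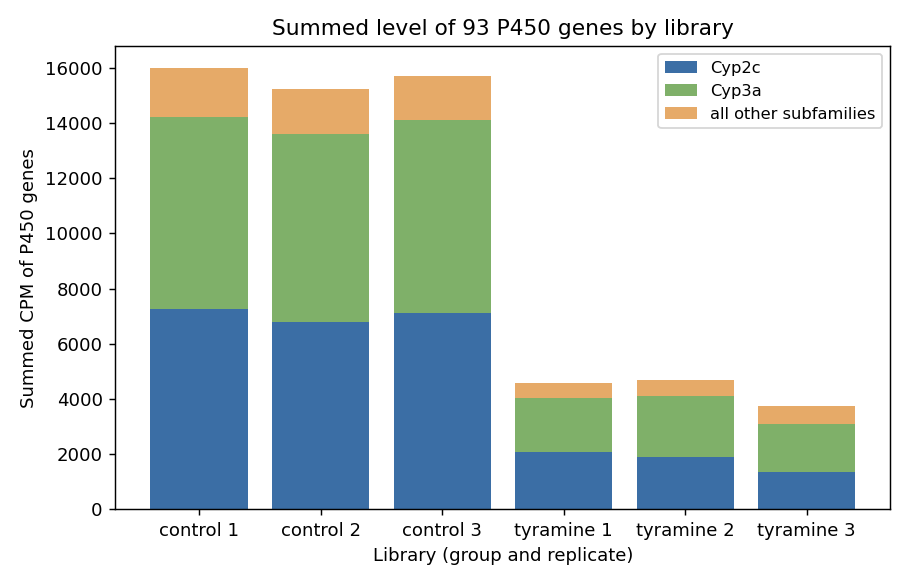
Stacked bars give the summed CPM of the 93 P450 genes in each library, split into Cyp2c, Cyp3a and all other subfamilies; the vertical axis starts at 0. The 3 tyramine bars stand between 3734 and 4682 CPM, all under the lowest control bar at 15225 CPM.

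Several lists of cell type markers held falling genes too, but not all did (the other lists are given further below). All 16 enterocyte markers fell (median log2 fold change -3.50), among them Slc2a2 (-4.58), Slc5a1 (-3.73), Alpi (-3.84) and Mttp (-2.35), and their summed CPM was 20386 to 21739 in controls and 4009.9 to 4146 with tyramine. In bulk samples, fewer cells of a type and less RNA per cell cannot be told apart. Within each library the P450 sum was 0.736, 0.732 and 0.770 of the enterocyte marker sum in controls and 1.12, 1.13 and 0.931 of it with tyramine, so the P450 sum was lower by a smaller factor than that sum. Of 8 proliferation markers, 7 fell, among them Mki67 (-5.81), Top2a (-5.90), Mcm6 (-1.87) and Birc5 (-6.77), with sums of 2328 to 2845 and 181 to 219 CPM. Of 7 goblet markers, 4 fell, Fcgbp (-0.94), Clca1 (-1.21), Zg16 (-1.77) and Agr2 (-2.36), with sums of 121 to 148 and 58.8 to 71.7 CPM. The part of these changes in the P450 values was not tested.

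The sums of the larger groups were lower too. The Cyp2c sum went from 7056 ± 241 to 1775 ± 378 CPM, 3.97-fold lower, and the Cyp3a sum from 6918 ± 95.0 to 1963 ± 242 CPM, 3.52-fold lower. All other subfamilies together went from 1667 ± 81.4 to 592 ± 45.1 CPM, 2.82-fold lower. No test was made on these sums. By level, 16 of the 20 reported genes with a mean of at least 10 CPM fell, where 17% of the 7660 genes tested at that level did. The 4 that did not pass were Cyp1a1, Cyp1b1, Cyp20a1 and Cyp4f13. Of the 18 reported genes between 1 and 10 CPM, 2 fell, 1 rose and 15 did not pass, and of the 7 under 1 CPM, 1 fell and 6 did not pass. All genes at those levels fell in 6.28% and 8.87% of cases. These levels were chosen after the values were seen.

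**Figure D2:**
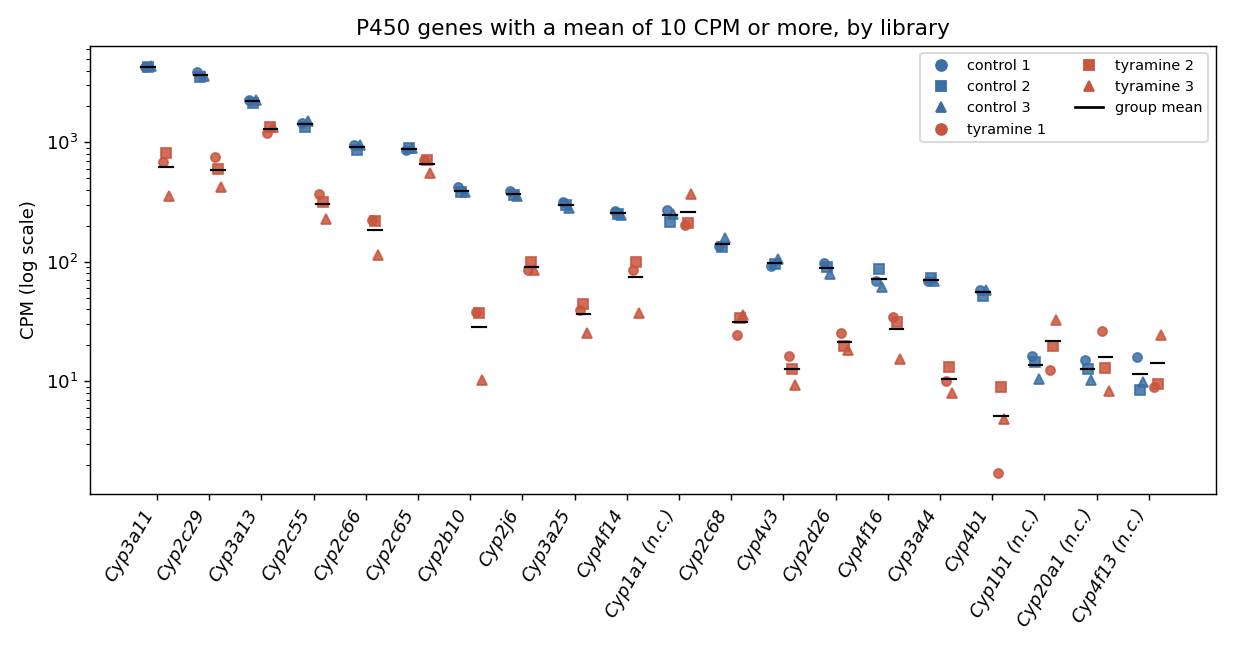
Points give CPM per library on a log axis for the 20 reported P450 genes with a mean of at least 10 CPM, ordered by control mean, with black bars at group means; n.c. marks genes that did not pass the test. Tyramine points lie under control points for all but Cyp1a1, Cyp1b1, Cyp20a1 and Cyp4f13.

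Of the Cyp3a genes, whose human relatives carry out much of the drug oxidation in the gut wall, 4 of 6 reported members fell and 2 did not pass (median log2 fold change -2.78). Cyp3a11, a PXR target of mouse liver and intestine, lies at chr5:145854426-145879964 on the minus strand (GRCm38). It stood at 4312, 4276 and 4339.8 CPM in the controls and at 683, 819 and 357 CPM in the tyramine libraries, again with replicates 1, 2 and 3 in turn, as below. The controls lay within a narrow band, whereas tyramine replicate 3 was the lowest of its group. The group means were 4309.6 ± 31.8 and 619.8 ± 237 CPM, 6.95-fold lower (log2 fold change -2.80, SE 0.260, adjusted p = 8.8e-05).

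Cyp3a13, which lies apart from the other Cyp3a genes at chr5:137892932-137921619, fell by a smaller fold. It stood at 2269, 2158 and 2279 CPM in controls and 1199.9, 1342 and 1345 CPM with tyramine, 1.73-fold lower (log2 fold change -0.79, SE 0.0795, adjusted p = 8.3e-05). The tyramine libraries agreed closely with each other and lay under all controls. Per kilobase of exon, Cyp3a11 averaged 846 and Cyp3a13 756 CPM in controls, and 122 and 438 CPM with tyramine. These values depend on the length used, which joins all annotated exons, 5093 bases for Cyp3a11 and 2956 for Cyp3a13. Within each library the ratio of Cyp3a11 to Cyp3a13 CPM was 1.90, 1.98 and 1.90 in controls and 0.569, 0.610 and 0.266 with tyramine, so the pair stood in opposite order in the groups, per kilobase as well. An exact permutation test over the 6 libraries gave a two-sided p = 0.1 for the ratio, the smallest that 3 against 3 allows, and the pair was picked after its values were seen.

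Cyp3a25 and Cyp3a44, further members of the chromosome 5 group, fell as well. Cyp3a25 stood at 318, 298 and 285 CPM in controls and 39.7, 43.9 and 25.2 CPM with tyramine, 8.27-fold lower (log2 fold change -3.05, SE 0.196, adjusted p = 5.1e-06). Cyp3a44 stood at 69.4, 72.9 and 69.1 CPM and 10.1, 13.2 and 7.97 CPM, 6.77-fold lower (log2 fold change -2.76, SE 0.228, adjusted p = 2.3e-05). Neither gene's groups overlapped. Of their windows of 50 exonic bases, 26.8% and 26.5% occur in another transcript of the annotation, for Cyp3a25 mostly in Cyp3a59, so their reads could be split between copies; the share was 6.73% for Cyp3a11 and 0 for Cyp3a13. Cyp3a16 (log2 fold change -3.72, control counts of 38, 31 and 20, tyramine counts of 3, 3 and 0) and Cyp3a59 (-1.19, groups overlapping) did not pass, with adjusted p = 0.081 and 0.54 in edgeR's test.

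The promoters of Cyp3a11 and Cyp3a16 share a word that is a known recognition sequence of HNF4A, a transcription factor of liver and gut. They are printed because Cyp3a11 is among the P450 genes that gave most counts. The windows are from RefSeq's promoters on GRCm38.p6, 5′ to 3′ on the genes' minus strand, at chr5:145879935-145879983 and chr5:145469794-145469842, and capitals mark CAAAGTCCA, which starts 109 and 99 bases before the transcription start.
Cyp3a11: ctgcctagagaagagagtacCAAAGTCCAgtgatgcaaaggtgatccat
Cyp3a16: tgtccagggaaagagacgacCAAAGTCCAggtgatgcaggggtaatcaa
Promoter sequences of 250 bases before to 50 after the start were matched for 43 of the 45 reported genes (72 of the 93), with 50 promoters among the 43. On either strand, CAAAGTCCA is in 7 of those 50 and in 0.475% of all 32851 promoters. The 7 belong to Cyp3a and Cyp2c relatives with similar sequence, and the windows of Cyp2c40 and Cyp2c69 are identical. Some genes, such as Cyp4f14, also have several overlapping promoters among the 50. These are thus not independent cases, and the 2 shares cannot be compared as if they were. A match is a description of letters and no evidence of binding.

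Of the Cyp2c genes, the largest P450 group here, 6 of 12 reported members fell and 6 did not pass (median log2 fold change -2.30). These enzymes oxidise arachidonic acid to epoxides and hydroxy acids, as well as drugs. Cyp2c29, an arachidonate epoxygenase at chr19:39269405-39330713 (plus strand), stood at 3857, 3525 and 3582 CPM in controls and 756, 596 and 420.1 CPM with tyramine. It was 6.19-fold lower, from 3655 ± 177 to 591 ± 168 CPM (log2 fold change -2.63, SE 0.182, adjusted p = 7.4e-06). Per kilobase of exon it had the highest mean of the P450 genes in controls, at 1260.1, 1152 and 1170.2 CPM against 847, 839.6 and 852 for Cyp3a11. The length used joins all annotated exons of a gene, 3061 bases for Cyp2c29 and 5093 for Cyp3a11. This order could therefore differ with the lengths of the transcripts present, which were not measured. Cyp3a13 (768, 730.1 and 771) and Cyp2c55 (724, 679 and 756) followed and overlapped each other.

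Cyp2c55, known from the intestine and a producer of arachidonate metabolites, lies at chr19:39007019-39042693 (plus strand). It stood at 1445, 1355 and 1509 CPM in controls and 368, 314 and 229 CPM with tyramine, 4.73-fold lower (log2 fold change -2.24, SE 0.156, adjusted p = 7.7e-06). Its sequence is nearly its own, with 0.514% of windows shared. Cyp2c68 went from 136, 133 and 157 CPM to 24.5, 33.8 and 35.6 CPM, 4.53-fold lower (log2 fold change -2.18, SE 0.173, adjusted p = 1.7e-05), but 43.3% of its windows are shared with other transcripts.

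Cyp2c65 and Cyp2c66, both intestinal arachidonate oxidisers, stood at overlapping levels per kilobase of exon in controls (446, 466 and 462 and 485, 441 and 491 CPM) and averaged 343 and 95.1 CPM with tyramine. Cyp2c66 stood at 944, 857 and 956 CPM in controls and 224, 218 and 113 CPM with tyramine, 4.97-fold lower (log2 fold change -2.31, SE 0.224, adjusted p = 6.5e-05). Cyp2c65 stood at 861, 899 and 891 CPM and 715, 714 and 555 CPM, 1.34-fold lower (log2 fold change -0.42, SE 0.108, adjusted p = 0.018). Both fell without overlap, but the Cyp2c65 call was lost without control replicate 1, 2 or 3, at adjusted p = 0.057, 0.076 and 0.061 in edgeR's test. The ratio of Cyp2c66 to Cyp2c65 CPM was 1.10, 0.954 and 1.07 in controls and 0.313, 0.305 and 0.204 with tyramine, in a pair also picked after its values were seen (exact permutation test, two-sided p = 0.1, likewise the smallest possible; of the 2 ratios tested, neither could pass). They share 20.6% (Cyp2c65) and 19.5% (Cyp2c66) of windows, mostly with each other.

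**Figure D3:**
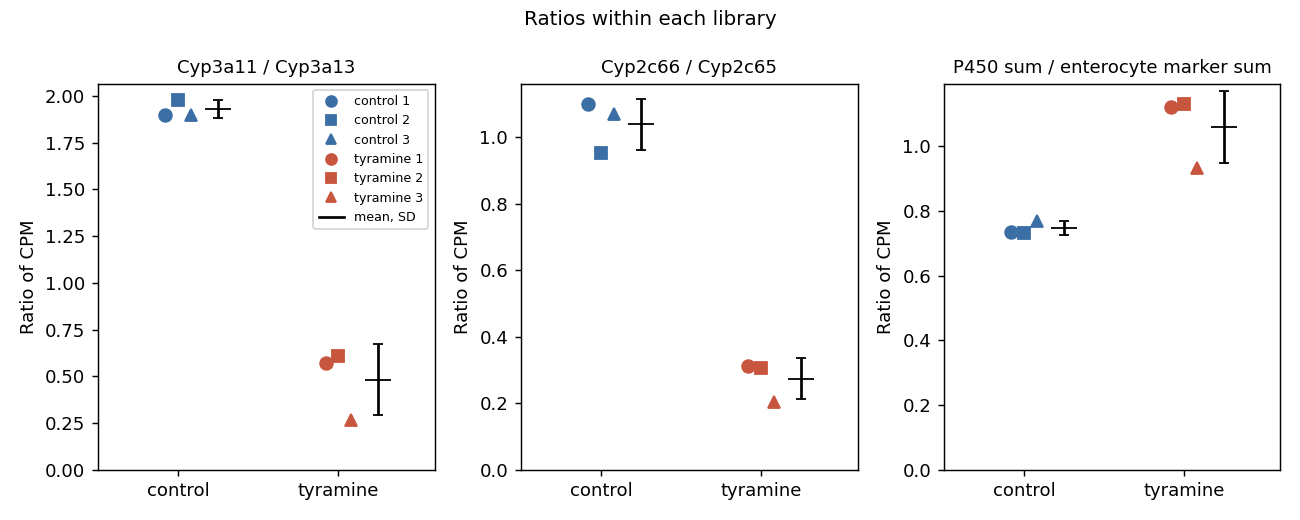
Points give ratios of CPM within each library, with black bars for the mean and SD of each group (n = 3) and axes from 0. The ratios of Cyp3a11 to Cyp3a13 and of Cyp2c66 to Cyp2c65 are lower in all tyramine libraries, and the ratio of the P450 sum to the enterocyte marker sum is higher in all of them.

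Cyp2c40, which makes hydroxy acids from arachidonate, was scarce. Its control libraries counted 151, 144 and 87 and its tyramine libraries 8, 15 and 1, or 4.97, 3.95 and 3.05 CPM against 0.282, 0.472 and 0.0348 CPM, 14.9-fold lower (log2 fold change -3.90, SE 1.12, adjusted p = 0.028). The call was lost without control replicate 1, 2 or 3 (adjusted p = 0.12, 0.10 and 0.083 in edgeR's test) and without tyramine replicate 1 (0.054), and 60.3% of its windows are shared, mostly with Cyp2c69. The 6 Cyp2c genes that did not pass had log2 fold changes of -2.28 (Cyp2c37), -2.39 (Cyp2c38), -2.12 (Cyp2c39), -0.58 (Cyp2c50), -2.47 (Cyp2c67) and -3.17 (Cyp2c69). All but Cyp2c50 lay lower in every tyramine library. Cyp2c38 had 97 counts in tyramine replicate 2 and 0 in the other tyramine libraries, and passed without that replicate (adjusted p = 0.0025), as Cyp2c67 did without tyramine replicate 3 (0.034, edgeR's test).

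The CAAAGTCCA word recurs in 5 Cyp2c promoters, which are printed because they lie in the same chromosome 19 group and differ in how far their genes moved. The RefSeq windows on GRCm38.p6 are read 5′ to 3′ on each gene's own strand, plus for Cyp2c65 and minus for the others. Capitals mark the word, which starts 116, 125, 77, 45 and 75 bases before the start in the order printed, at chr19:39060870-39060918, chr19:39649139-39649187, chr19:39741150-39741198, chr19:39812831-39812879 and chr19:39886816-39886864.
Cyp2c65: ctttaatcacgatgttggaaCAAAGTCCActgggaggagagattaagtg
Cyp2c67: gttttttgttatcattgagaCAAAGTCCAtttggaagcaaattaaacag
Cyp2c68: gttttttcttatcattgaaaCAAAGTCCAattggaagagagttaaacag
Cyp2c40: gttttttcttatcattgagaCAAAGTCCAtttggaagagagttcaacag
Cyp2c69: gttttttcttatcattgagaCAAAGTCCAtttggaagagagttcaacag
Of these genes, Cyp2c65, Cyp2c68 and Cyp2c40 fell, by log2 fold changes of -0.42, -2.18 and -3.90, and Cyp2c67 and Cyp2c69 did not pass. Cyp2c29, Cyp2c55 and Cyp2c66 fell without the word in their RefSeq windows, which says only that these letters are not there.

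Of the 3 reported Cyp2b genes, a group known for its response to phenobarbital, 1 fell, 1 rose and 1 did not pass. Cyp2b10, the main CAR target at chr7:25897620-25926624, stood at 420.3, 381 and 383 CPM in controls and 37.8, 37.5 and 10.3 CPM with tyramine. It was 13.8-fold lower, from 395 ± 22.1 to 28.6 ± 15.8 CPM (log2 fold change -3.79, SE 0.424, adjusted p = 0.00028), with tyramine replicate 3 the lowest of all. Cyp2b9, known in mouse liver as a gene higher in females, lies at chr7:26173411-26210661 on the same strand. The control libraries counted it 1, 0 and 1 times and the tyramine libraries 21, 108 and 61 times, or 0.741, 3.40 and 2.12 CPM. The pooled ratio of tyramine to control was 102 with an exact 95% interval of 27.8 to 848 that covers counting error only (fitted log2 fold change 6.34, which depends on the prior count, adjusted p = 0.012, edgeR's quasi-likelihood test). Cyp2b9 met the count minimum through tyramine libraries alone. That its groups did not overlap follows from this, and the ratio and call are those of a gene picked for being high there. With every count halved the controls stood at 0 and the gene was at least 10.8-fold higher with tyramine, each control set to 3 counts. The rise did not pass without control replicate 1, 2 or 3 (adjusted p = 0.063, 0.068 and 0.063) or with the replicate block (0.051). Cyp2b13, like Cyp2b9 a gene of female mouse liver, was counted 48, 25 and 30 times in controls, then 4, 0 and 1 times under tyramine, and did not pass (log2 fold change -4.16, adjusted p = 0.065). Cyp2b9 shares 11.2% of its windows, mostly with Cyp2b13.

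Of the Cyp2d genes, 3 of 4 reported members fell and 1 did not pass (median log2 fold change -4.28). Cyp2d26 stood at 97.9, 90.8 and 78.9 CPM in controls and 25.3, 19.9 and 18.2 CPM with tyramine, 4.22-fold lower (log2 fold change -2.08, SE 0.188, adjusted p = 4.3e-05). Cyp2d10 was counted 88, 80 and 82 times in controls and 0 times in each tyramine library, at least 26.2-fold lower with each tyramine library set to 3 counts (adjusted p = 0.005). Cyp2d11 was counted 11, 12 and 11 times in controls and 0 times in each tyramine library, at least 3.54-fold lower (adjusted p = 0.037). Cyp2d10 and Cyp2d11 met the count minimum through control libraries alone. Their bounds and calls are thus those of genes picked for being high there. With every count halved, since low counts were mostly even, the bounds became 13.1-fold and 1.66-fold. The bounds cover counting error only, and 35.8% and 37.2% of the windows of these genes are shared. The Cyp2d11 call was lost without each of the 6 libraries in turn, at adjusted p = 0.10, 0.12 and 0.12 without control replicates 1, 2 and 3 and 0.080, 0.086 and 0.095 without tyramine replicates 1, 2 and 3 (edgeR's test). Cyp2d22 had 18, 0 and 121 counts in the tyramine libraries against 37, 60 and 46 in controls, and its log2 fold change of 0.11 became -0.02 without control replicate 1 and -2.23 without tyramine replicate 3.

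Of the Cyp2j genes, 1 of 3 reported members fell and 2 did not pass (median log2 fold change -2.03). Cyp2j6, a P450 of the small intestine, lies at chr4:96516138-96553661. It stood at 389, 362 and 356 CPM in controls and 85.4, 100.3 and 86.2 CPM with tyramine. The means were 369 ± 17.7 and 90.6 ± 8.39 CPM, 4.07-fold lower (log2 fold change -2.03, SE 0.109, adjusted p = 1.5e-06), the smallest adjusted p among the P450 genes. Cyp2j9 (log2 fold change -4.48) and Cyp2j5 (-1.80) did not pass. Cyp2j9 was counted 163, 205 and 162 times in controls, then 21, 0 and 0 times under tyramine, with adjusted p = 0.058, 0.0023 without tyramine replicate 1 and 0.043 without tyramine replicate 3 (edgeR's test). It passed in 9 of the 17 alternatives, whose adjusted p ran from 0.0023 to 0.16. Cyp2j5 had 0 counts in control replicate 3 and in tyramine replicates 2 and 3.

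Among the CYP4 genes, whose enzymes hydroxylate the far end of fatty acids and leukotrienes, 4 of 8 reported members fell and 4 did not pass. Cyp4v3, the mouse counterpart of the human retinal disease gene CYP4V2, stood at 91.5, 96.0 and 106 CPM in controls and 16.2, 12.7 and 9.33 CPM with tyramine, 7.65-fold lower (log2 fold change -2.94, SE 0.223, adjusted p = 1.3e-05). Cyp4b1, a fatty acid hydroxylase that also activates some toxins, stood at 58.2, 52.2 and 58.6 CPM and 1.69, 8.90 and 4.87 CPM, 10.9-fold lower (log2 fold change -3.44, SE 0.487, adjusted p = 0.00071). The Cyp4b1 tyramine libraries spread from 1.69 to 8.90 CPM and still lay under all controls.

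Of the Cyp4f genes, 2 of 5 reported members fell (median log2 fold change -1.78). Cyp4f14, a leukotriene B4 hydroxylase, stood at 265, 251 and 247 CPM in controls and 84.7, 100.1 and 37.4 CPM with tyramine, 3.43-fold lower (log2 fold change -1.78, SE 0.297, adjusted p = 0.0022). Cyp4f16 stood at 68.5, 87.3 and 61.2 CPM and 34.8, 31.5 and 15.5 CPM, 2.66-fold lower (log2 fold change -1.41, SE 0.291, adjusted p = 0.006), with 17.4% of its windows shared. In both genes tyramine replicate 3 was the lowest. Cyp4f13 was one of the few abundant P450 genes that did not pass (log2 fold change 0.31, and -0.32 without tyramine replicate 3). Cyp4f37 (-2.40) and Cyp4f40 (-3.05) did not pass either, although Cyp4f40, with 28 counts in tyramine replicate 3 and 0 in the other tyramine libraries, did without that replicate (adjusted p = 0.0042, edgeR's test). Cyp4a32 stood at 2.17, 1.45 and 2.46 CPM in controls and 1.31, 0 and 0.661 CPM with tyramine (log2 fold change -1.62, adjusted p = 0.45), with 43.8% of its windows shared, mostly with Cyp4a10, a target gene of the fatty acid receptor PPARA.

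**Figure D4:**
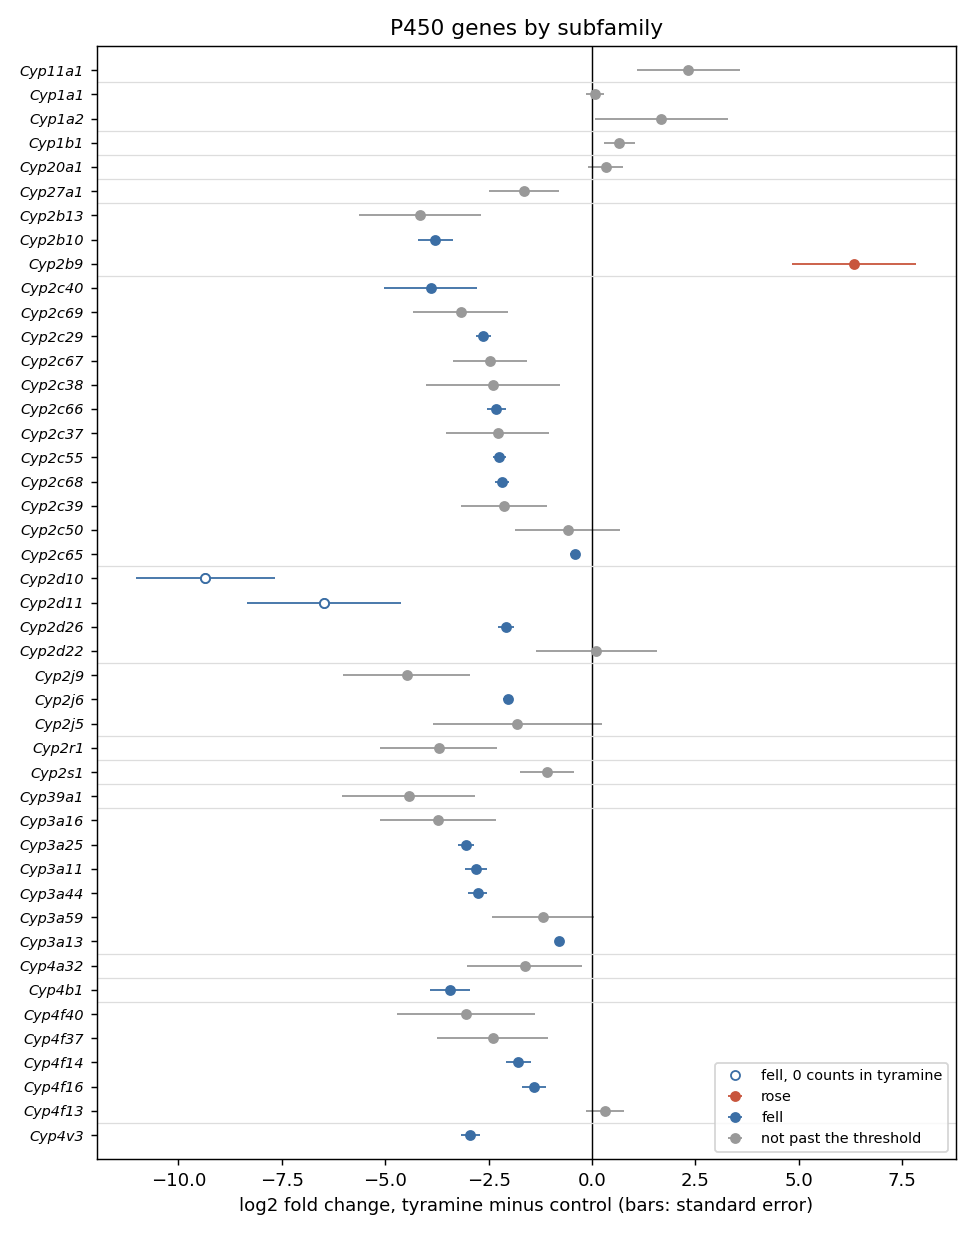
Points give the log2 fold change (tyramine minus control) of the 45 reported P450 genes from edgeR, ordered by subfamily, with bars for the standard error. Of these, 19 are marked as fallen and 1 as risen; the 2 open points (Cyp2d10 and Cyp2d11) have 0 counts in every tyramine library, where the fitted value depends on the prior count and is no bound.

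Of the CYP1 genes, the classic targets of AHR, none of the 3 passed edgeR's test or any alternative run, none had an unadjusted p under 0.05, and all had positive log2 fold changes, although Cyp1a1 turned to -0.0047 when scaled to library totals alone and Cyp1a2 to -0.50 with limma-voom. Cyp1a1, which lies at chr9:57687928-57703824 and oxidises polycyclic aromatic compounds, stood at 273, 215 and 252 CPM in controls and 201, 211 and 372 CPM with tyramine. The groups overlapped, and the means of 247 ± 29.2 and 261 ± 95.7 CPM differed by less than the spread of the tyramine libraries (log2 fold change 0.08, SE 0.215, adjusted p = 0.83 in edgeR's test). Its sign turned without control replicate 2 (-0.01) and without tyramine replicate 3 (-0.26). Cyp1b1, an extrahepatic relative, stood at 16.4, 14.5 and 10.5 CPM and 12.5, 19.9 and 32.8 CPM (log2 fold change 0.66, adjusted p = 0.24). Cyp1a2, mainly a liver enzyme, was counted 21, 11 and 24 times in controls, then 15, 171 and 0 times under tyramine (log2 fold change 1.68, and -1.19 without tyramine replicate 2, which held 171 of its 186 tyramine counts).

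Other AHR targets in the list used here split: of 7 tested, 4 rose, 2 fell and 1 did not pass. Nqo1, a quinone reductase that is also a target of the stress factor NRF2, rose from 61.4 to 613 CPM (log2 fold change 3.32). Gsta1, a glutathione transferase, rose from 21162 to 37306 CPM (0.82). Ahrr, named after its values were seen, rose from 3.57 to 12.9 CPM (1.85, adjusted p = 0.022, edgeR's test). The glucuronosyltransferases Ugt1a6a and Ugt1a6b fell, by log2 fold changes of -0.93 and -0.98, with exons that overlap each other. In the promoter sequences, the AHR word TNGCGTG is in 1 of the 50 reported P450 promoters (Cyp2c68) and in 5.07% of all. These run only from 250 bases before to 50 after the start. Sequence further off was not searched, so a gene without the word here may hold it elsewhere. The antioxidant word TGACNNNGC is in 4 of the 50 (Cyp2c65, Cyp2c66, Cyp2j6 and Cyp4f14) and in 12.4% of all, each word searched on both strands.

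The reported P450 genes of sterol, bile acid, vitamin D and steroid pathways averaged under 10 CPM over all libraries. None passed edgeR's test, although Cyp2r1 and Cyp39a1 had an unadjusted p of 0.026 and 0.021 in it and DESeq2 called Cyp2r1 (adjusted p = 0.013). Cyp27a1, the mitochondrial sterol hydroxylase of bile acid synthesis, stood at 12.6, 14.4 and 11.3 CPM in controls and 0.247, 4.03 and 8.01 CPM with tyramine (log2 fold change -1.64, adjusted p = 0.2). All 3 tyramine libraries lay under the controls but far apart from each other, and without tyramine replicate 3 the gene passed (log2 fold change -2.57, adjusted p = 0.048, edgeR's test). Cyp2r1, a vitamin D hydroxylase, stood at 2.01, 2.85 and 1.09 CPM and 0.318, 0.126 and 0 CPM (log2 fold change -3.71, adjusted p = 0.085). Cyp39a1, an oxysterol hydroxylase, was counted 13, 17 and 24 times in controls, then 2, 0 and 0 times under tyramine. Its pooled control-to-tyramine ratio was 25.2 with an exact interval of 6.64 to 213, or 3.98 to 994 with every count halved (log2 fold change -4.43, adjusted p = 0.071). Cyp2r1 and Cyp39a1 met the count minimum through control libraries alone. This ratio and the p-values of both are thus those of genes picked for being high there, and are no support.

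Cyp11a1, which cuts the side chain of cholesterol at the start of steroid synthesis, stood at 0.230, 0.576 and 0.316 CPM in controls and 3.99, 1.45 and 0.278 CPM with tyramine (log2 fold change 2.33, adjusted p = 0.21). Tyramine replicates 1 and 2 lay above the controls and replicate 3 lay under 2 of them. Cyp20a1, an orphan P450 with no established substrate, stood at 15, 12.6 and 10.3 CPM and 26.5, 12.9 and 8.25 CPM (log2 fold change 0.33, and -0.25 without tyramine replicate 1). Cyp2s1, an epithelial P450 also known as an AHR target, stood at 9.78, 9.32 and 7.44 CPM and 6.11, 0.975 and 5.40 CPM (log2 fold change -1.09, adjusted p = 0.26). Its tyramine libraries lay under the controls, replicate 2 furthest.

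The P450 genes below the count minimum were few in transcripts and got no test. Summed over the 3 libraries of each group, control and tyramine totals were 158 and 0 for Cyp4a10, 29 and 1 for Cyp4a31, 45 and 0 for Cyp2c23, 21 and 2 for Cyp2e1, the ethanol-inducible P450, and 16 and 2 for Cyp26b1, a retinoic acid hydroxylase. The reverse held for Cyp26c1 (0 and 13), Cyp2t4 (1 and 16) and Cyp4f39 (7 and 25), and Cyp46a1 had 4 and 6 and Cyp7b1 0 and 2. The steroid genes had 9 and 0 (Cyp11b1), 8 and 0 (Cyp11b2) and 2 and 0 (Cyp19a1, aromatase). The rest had 7 and 0 (Cyp2b19), 2 and 0 (Cyp2c70), 2 and 0 (Cyp2d13), 3 and 0 (Cyp2d34), 11 and 8 (Cyp2j13), 10 and 2 (Cyp2u1), 6 and 0 (Cyp4f15) and 12 and 6 (Cyp4f17). Among the 27 genes at 0 in every library, which allows up to 3 counts or 0.0823 to 0.106 CPM per library, were all 4 Cyp2a genes, the bile acid enzymes Cyp7a1 and Cyp8b1, the retinoic acid hydroxylase Cyp26a1, the vitamin D enzymes Cyp24a1 and Cyp27b1, and the steroid enzymes Cyp17a1 and Cyp21a1. The others were Cyp2b23, Cyp2c54, Cyp2d9, Cyp2d12, Cyp2d40, Cyp2f2, Cyp2g1, Cyp2j8, Cyp2j11, Cyp2j12, Cyp2w1, Cyp3a57, Cyp4a14, Cyp4a29, Cyp4f18 and Cyp4x1.

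The P450 transcripts kept by the tyramine libraries were differently made up. Of all P450 CPM, Cyp3a11 took 27.6% in controls and 14.3% with tyramine, and Cyp2c29 took 23.4% and 13.6%. Cyp3a13 took 14.3% and 29.9%, and Cyp2c65 took 5.65% and 15.3%. The share of Cyp1a1 was 1.58% and 6.04%, and that of Cyp2b10 was 2.52% and 0.66%. These are shares of mean CPM, in which longer transcripts weigh more, and no test was made on them.

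Most reported genes lie in chromosome groups with their relatives, and the tested genes beside those groups were described too (non-P450 genes within 250 kb, positions from GENCODE M21 on GRCm38). The Cyp2c group on chromosome 19 (chr19:39007019-40187333) had 6 such neighbours, of which 1 fell and 3 rose (median log2 fold change 0.62). The Cyp3a group on chromosome 5 (chr5:145345279-146113287) had 13, of which 1 fell and 2 rose (0.38). The Cyp4f group (chr17:32452723-32947402) had 11, of which 3 rose (0.32, with 2 of its 5 reported P450 genes falling). The Cyp2d group (chr15:82370527-82794294) had 6, of which 1 fell and 1 rose (median -0.23), and the group of Cyp2b and Cyp2s genes (chr7:25802475-27158668) had 16, of which 1 fell and 1 rose (0.01). Beside the Cyp2j group (chr4:96027534-96664154) lay 1, Hook1, which fell (-0.95), beside the Cyp4a and Cyp4b group (chr4:115106323-115647723) 7 that did not pass (median -0.50), and beside Cyp1a1, Cyp1a2 and Cyp11a1 (chr9:57676937-58027023) 16, of which 1 fell and 2 rose (0.01). For comparison, 13.3% of all genes tested fell and 12.5% rose.

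The listed partners of P450 enzymes, most of which pass electrons to them, moved both ways: of 10 tested, 3 rose, 4 fell and 3 did not pass. The cytochromes Cyb5b and Cyb5a fell from 1079 to 332 CPM (log2 fold change -1.70) and from 933 to 490.0 CPM (-0.93), and the reductase Cyb5r3 fell from 707 to 390.1 CPM (-0.86). Pgrmc1, a heme-binding protein that associates with P450 enzymes, rose from 257 to 527 CPM (1.04). Por itself, named after its values were seen, rose from 394 to 511 CPM (0.37, adjusted p = 0.024, edgeR's test). Of 12 heme synthesis genes tested, 1 rose, Alad (1.46), 5 fell, among them Abcb10 (-1.22) and Cpox (-0.67), and 6 did not pass. Both epoxide hydrolases tested, which act on P450 epoxides, fell: Ephx2 by a log2 fold change of -1.54 and Ephx1 by -0.54.

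Of 24 receptors and transcription factors known to act on P450 genes, 7 fell and 17 did not pass. PXR (Nr1i2) fell from 244 to 77.3 CPM (log2 fold change -1.66), and the vitamin D receptor Vdr from 88.4 to 19.8 CPM (-2.16). Hnf4a fell from 534 to 231 CPM (-1.21) and Hnf4g from 220.4 to 33.3 CPM (-2.73). CAR (Nr1i3) fell from 13 to 1.04 CPM (-3.64) and Ahr, at 21.5 and 30.8 CPM, did not pass (adjusted p = 0.14, edgeR's test), both named after their values were seen. Their part in the P450 values was not tested.

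Beyond the symbol rule, Cyp51, the P450 of cholesterol synthesis, fell from 367 to 176 CPM (log2 fold change -1.06), 1 of 2 tested genes in its list. Of the other arachidonate genes listed, both of those tested rose, Pla2g4a (2.01) and Ptgs2 (8.21). Of 8 retinoid genes tested, 7 fell, among them Rbp2 (-2.96), Rdh7 (-3.89), Bco1 (-1.70) and Lrat (-5.32). Of 4 vitamin D response genes tested, 2 fell, Vdr and S100g (-2.37), and 2 did not pass.

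Epithelial markers were counted in all 6 libraries. The 10 general markers of gut epithelium summed to 21195 to 22737 CPM in controls and 18952 to 21232 CPM with tyramine, where 2 rose, among them Krt18 (0.67), and 4 fell, among them Vil1 (-1.43), Cdx2 (-1.79) and Epcam (-0.44). Abundant keratins such as Krt8 (6297 CPM in controls, 6687 CPM with tyramine) weigh most in these sums. The sums thus cannot show whether gut identity was kept. Of 6 enteroendocrine markers tested, 4 fell, Chgb (-1.41), Gip (-4.27), Chga (-2.97) and Tph1 (3.36 CPM and 0), with sums of 1070.1 to 1074 and 318 to 496 CPM. Of 5 Paneth markers tested, 1 fell, Ang4 (1.06 CPM and 0), with sums of 38.4 to 76.4 and 19.1 to 44.1 CPM, and the 2 tuft markers tested did not pass (Avil 1.30, Il25 at 0, sums of 1.37 to 2.67 and 2.54 to 6.02 CPM).

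Markers of other tissues were low. Fibroblast and muscle markers summed to 10.5 to 11.2 CPM in controls and 9.67 to 10.6 CPM with tyramine (5 tested, not past the threshold, Des -0.64). Immune markers summed to 5.86 to 8.91 and 6.92 to 10.2 CPM (2 tested, not past the threshold, Lyz2 0.18), and endothelial markers to 0.386 to 1.25 and 0.209 to 2.61 CPM, too low to test. Many P450 genes named here are best known from liver, whose markers summed to 9.58 to 14.8 and 0.278 to 1.80 CPM. Of these, Ahsg and Fgb were at 0 in every library, Alb was counted 6, 0 and 43 times in controls but 0 times under tyramine, and Ttr, the only one tested, fell (log2 fold change -3.94).

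The libraries held 28316372 to 35035955 counts in controls and 29176428 to 32489563 with tyramine. Low values, from 1 to 8 counts, were mostly even (72.6% to 78.7% of them, by library), and single counts may therefore not be separate molecules. Libraries of a group differed beyond counting noise, with a chi-square per degree of freedom of 25.8 to 33.5 between controls and 51.1 to 95.0 between tyramine libraries. Tyramine replicate 3 had the lowest P450 sum.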

How the data were processed

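Per the labels' protocols, total RNA (2 µg a library) was made into stranded mRNA libraries whose cDNA carries molecular identifiers of 8 bases, and sequenced as paired ends on a DNBSEQ-T7. STAR 2.5.3a and build mm10 are named per the submitters' processing notes. How reads were counted, with which annotation and strand setting, and whether identifiers were used, is not stated in them. The authors deposited raw counts per gene symbol, 1 column per library. The members, gene lists and tests were chosen with earlier results of these data known.

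From the deposited counts, 12139 genes passed edgeR's filterByExpr (minimum count 10, minimum total 15), and TMM factors were 0.962 to 1.04. Group was the only term of the main model, fitted robustly in edgeR 4.0.16 (R 4.3.3) and tested by quasi-likelihood F-test, adjusted by Benjamini-Hochberg over all genes tested. Each SE was obtained from the log2 fold change and its F statistic, as the former over the root of the latter. Alternatives used DESeq2 1.42.0, limma-voom (limma 3.58.1), other scalings and filters, halved counts, a replicate block and each library left out. The scripts were tested on simulated counts. Of 50 genes changed at each fold, 4 were called at 1.5-fold, 18 at 2-fold, 41 at 4-fold and 38 at 8-fold. A gene that did not pass may thus still have changed. Same-numbered libraries did not deviate together (correlations of deviations -0.0239, -0.0148 and 0.00619), so the numbers were not taken as pairs.

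Every reported gene is named with its log2 fold change or bound. Values per library are given for the called genes, at most 20, and in each subfamily without one for its most abundant gene. Of each list, up to 4 called genes are named, smallest p first, or 1 if none was called. Some genes that this rule picks are not reported here. Other names were chosen after their values were seen. Positions, exon lengths and shared windows of 50 bases come from GENCODE M21 on GRCm38, matched by symbol. An exon length counts every base that lies in any annotated exon of the gene.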

Additional observations from a re-analysis of the deposited data

How the results depend on the processing

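The count of falling P450 genes was 19 in the main test and 16 to 22 with 1 library left out, 18 with the replicate block, 22 with limma-voom, 25 with DESeq2 and 16 at an adjusted p under 0.01. The single rise, Cyp2b9, became 0 with the replicate block, at an adjusted p under 0.01 and with at least 1 CPM in 3 libraries, where it was not tested. With 1 library left out it was 0 to 1. In those fits without the rise, other than that filter, 1 P450 gene still had an unadjusted p under 0.05 and rose, and DESeq2 called 1. Over all genes, 3127 calls became 1789 at an adjusted p under 0.01 and 1977 to 3307 with 1 library left out. No alternative turned the direction of any of the 20 called genes, and 16 kept their call in every alternative fit; Cyp2b9, Cyp2c40, Cyp2c65 and Cyp2d11 did not. With the replicate block, Cyp2b9, Cyp2c40 (adjusted p = 0.053) and Cyp2d11 (0.13) lost their call and Cyp2j9 passed (0.046), edgeR's test. Of the 25 genes not called, 10 passed in at least 1 alternative and 5 changed sign. Scaling to library totals alone turned Cyp1a1 to -0.0047 on the log2 scale, and leaving out 1 library gave -0.26 (without tyramine replicate 3) to 0.24, with -0.01 without control replicate 2. Cyp1a2 turned to -0.50 with limma-voom, with and without group weights, to -0.34 with the replicate block and to -1.19 without tyramine replicate 2, within -1.19 to 2.27 over the libraries left out. Cyp2d22 turned to -2.20 with limma-voom, -2.19 with weights, -1.40 with the replicate block, -0.02 without control replicate 1 and -2.23 without tyramine replicate 3, within -2.23 to 0.70. Cyp20a1 turned to -0.25 without tyramine replicate 1 (up to 0.64) and Cyp4f13 to -0.32 without tyramine replicate 3 (up to 0.62). The cause of these changes was not tested. Genes with few counts, and copies with shared sequence, are limited by depth and by the counting rule, which the sources do not state. Intervals and bounds cover counting error only.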
